A study of Homo sapiens with 6 samples.

Results

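The genes described here encode the machinery that shows peptides to T cells on MHC class I molecules. There are 9 of them, HLA-B, HLA-C, HLA-E, HLA-F, B2M, TAP1, TAP2, TAPBP and NLRC5, of 60664 genes counted, and each was found once by its symbol. They were read in 6 libraries of polyadenylated RNA from D283 Med, a human cell line of Group 3 medulloblastoma with an amplified MYC gene. In 3 libraries (KD) the cells had been transfected with LNA GapmeRs, antisense oligonucleotides that guide RNase H, against the long non-coding RNA lncMB3. In the other 3 (SCR) the GapmeR was the scrambled control, so all cells had received a GapmeR. A single line was used, and nothing in the labels ties the libraries of a group to separate cultures. The p-values therefore cover library-to-library spread, which may be technical. The level of lncMB3 itself was not analysed here, and directions rest on the group labels.

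A class I molecule is a heavy chain (HLA-B, HLA-C, HLA-E and HLA-F are 4 of the human heavy-chain genes) held by the light chain beta-2 microglobulin, the product of B2M. Peptides made by the proteasome are pumped into the endoplasmic reticulum by a transporter built from TAP1 and TAP2. Tapasin, the product of TAPBP, bridges this transporter to empty class I molecules and helps to choose peptides that bind well. NLRC5 is a nuclear activator that switches on class I heavy chains, B2M and the transporter, and interferon raises the whole set. Neurons and many brain tumours are known for low class I expression.

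Promoters are shown because interferon and NLRC5 are known to act through short elements in class I promoters, and the members differ in which of the motifs searched they hold. Promoter windows of 250 bases before to 50 bases after a gene's start were taken from RefSeq (GRCh38.p14) for 7 of the 9 members, all but HLA-E and NLRC5. Each was searched on both strands for 4 motifs, the core of the interferon-stimulated response element (ISRE core, GAAA and GAAA with 2 bases between), the gamma-activated site (GAS, TTCNNNGAA), the Y box (CCAAT) and the CRE core (TGACG). Capitals mark the matches.
B2M promoter (chr15:44711267-44711566, plus strand): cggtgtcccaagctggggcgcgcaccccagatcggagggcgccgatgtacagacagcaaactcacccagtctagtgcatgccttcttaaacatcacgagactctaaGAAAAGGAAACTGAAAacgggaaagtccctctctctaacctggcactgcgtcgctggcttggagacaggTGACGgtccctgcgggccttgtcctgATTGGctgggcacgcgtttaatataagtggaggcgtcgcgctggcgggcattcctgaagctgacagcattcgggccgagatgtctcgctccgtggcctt
TAPBP promoter (chr6:33314029-33314328, minus strand): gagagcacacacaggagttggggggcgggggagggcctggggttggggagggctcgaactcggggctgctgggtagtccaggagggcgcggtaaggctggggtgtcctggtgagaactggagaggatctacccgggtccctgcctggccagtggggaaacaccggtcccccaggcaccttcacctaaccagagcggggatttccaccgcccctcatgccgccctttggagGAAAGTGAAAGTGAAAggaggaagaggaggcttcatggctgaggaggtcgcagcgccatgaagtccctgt
TAP1 promoter (chr6:32853655-32853954, minus strand): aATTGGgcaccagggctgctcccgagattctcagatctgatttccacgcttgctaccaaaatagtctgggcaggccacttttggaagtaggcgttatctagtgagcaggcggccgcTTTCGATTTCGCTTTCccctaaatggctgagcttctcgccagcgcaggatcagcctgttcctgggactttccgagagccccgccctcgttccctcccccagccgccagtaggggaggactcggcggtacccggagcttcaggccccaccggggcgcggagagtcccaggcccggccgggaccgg
HLA-B promoter (chr6:31357130-31357429, minus strand): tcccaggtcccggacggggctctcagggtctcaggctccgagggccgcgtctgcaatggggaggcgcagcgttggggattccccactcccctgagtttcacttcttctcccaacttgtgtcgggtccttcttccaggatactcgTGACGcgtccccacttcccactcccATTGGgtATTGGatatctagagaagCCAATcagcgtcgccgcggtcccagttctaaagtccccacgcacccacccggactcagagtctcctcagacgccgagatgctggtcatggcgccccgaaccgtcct
The ISRE core lay in the window of B2M, TAPBP, TAP1, TAP2 and HLA-F, and in 3.57% of all 35116 RefSeq windows. B2M, TAPBP and TAP1 each held 2 overlapping copies, which began at positions -144 and -138 from the start in B2M and at -20 and -14 in TAPBP. The windows of HLA-B and HLA-C held no match of these letters, but looser forms of the element were not searched, so its absence there is not shown. HLA-B and HLA-C held Y boxes, found in 34.6% of all windows, and a CRE core, found in 24.6%, which began at -106 in HLA-B and at -105 in HLA-C. Y boxes also lay in the windows of HLA-F, B2M and TAP1, and a CRE core in those of B2M and TAP2. GAS was found in 7.66% of all windows and, among the members, in a second window of TAP1. A match is a run of letters and was not tested for binding.

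Total counts were 7765826, 19989654 and 19306711 in KD libraries 1 to 3 and 17072573, 20035834 and 17351552 in SCR libraries 1 to 3, and KD library 1 gives low genes the least precision. The 8 fixed markers of the tumour type, such as OTX2 and IMPG2, summed to between 1538 and 1603 CPM (counts scaled to the size of the library) in KD libraries and between 1741 and 1867 CPM in SCR libraries, and 6 of them were lower and 1 higher in KD. Among all genes tested 15.9% were called lower and 15.9% higher by edgeR. The 14 immune cell markers summed to 1.82 to 3.13 CPM in KD and 1.96 to 2.74 CPM in SCR libraries, and 6 of them, CD3E, CD3D, CD2, MS4A1, NKG7 and GNLY, had 0 counts throughout. Of 6 fibroblast markers 2 of 3 tested were lower in KD, COL1A1 and DCN, with calls lost in 3 of 6 fits with a library left out for COL1A1 (adjusted p up to 0.139 by edgeR) and in 4 of 6 for DCN (up to 0.146). The list summed to 27.4 to 32.8 CPM in KD and 35.2 to 38.8 CPM in SCR libraries, with COL3A1 at 0. The 5 endothelial markers summed to 0.886 to 1.82 CPM in KD and 1.52 to 2.52 CPM in SCR libraries, with CDH5 at 0 and none called. The part of these markers in the results below was not tested.

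The members spanned a wide range of levels in D283 Med cells, and the light chain stood far above the genes it works with. Levels were compared between genes as CPM per kilobase of annotated exons. B2M was at 22.9 ± 2.54 CPM per kb in KD and 19.6 ± 1.82 in SCR libraries (SD, n = 3 each), above 86.2% of the tested genes. TAPBP followed at 2.18 ± 0.0900 in KD and 2.97 ± 0.539 in SCR libraries, then HLA-E at 1.81 ± 0.0997 in KD and 1.48 ± 0.235 in SCR libraries. HLA-C had 0.641 ± 0.140 CPM per kb in KD and 0.656 ± 0.129 in SCR libraries, and HLA-B had 0.567 ± 0.0910 in KD and 0.603 ± 0.0149 in SCR libraries, so these neighbours in the order did not differ beyond their spread. The bottom of the order held TAP2 at 0.0883 ± 0.0201 in KD and 0.0775 ± 0.0400 in SCR libraries, TAP1 at 0.0470 ± 0.0125 in KD and 0.0673 ± 0.00559 in SCR libraries, and NLRC5 at 0.0260 ± 0.0134 in KD and 0.0457 ± 0.00941 in SCR libraries. In SCR libraries the spreads of TAP2 and TAP1 overlapped, and in KD libraries those of TAP1 and NLRC5 did. HLA-F was last, with no count. Dividing by the longest coding transcript in place of all exons, a choice made after seeing the data, gave B2M 81.5 CPM per kb in KD and 69.7 in SCR libraries. It put HLA-B, at 1.12 in KD and 1.19 in SCR libraries, before HLA-C, at 1.03 in KD and 1.06 in SCR libraries. TAP1, at 0.0763 in KD and 0.109 in SCR libraries, then stood above TAP2, at 0.0993 in KD and 0.0871 in SCR libraries, in SCR but not in KD libraries. NLRC5 was at 0.0471 in KD and 0.0829 in SCR libraries on that scale.

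**Figure D1:**
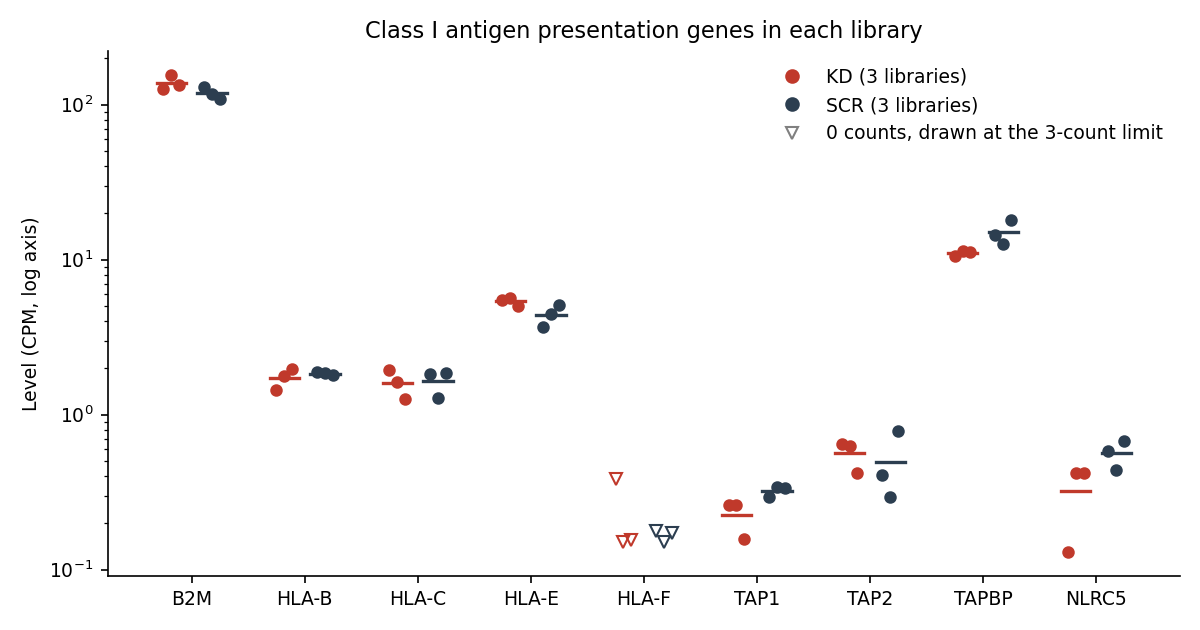
CPM of each member on a log axis in the 3 KD libraries (red, left) and the 3 SCR libraries (dark, right), with bars at the group means and open triangles for 0 counts, drawn at the 3-count limit of that library. B2M lies above 100 CPM in every library, and HLA-B, HLA-C and HLA-E lie between 1 and 6 CPM. TAPBP is the one member with more than 10 counts in each library whose groups do not overlap, as was so for 46% of tested genes. The groups of TAP1 and NLRC5, with fewer counts, do not overlap either.

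KD libraries were set against SCR libraries to find the transcripts whose level differs after lncMB3 is targeted. In bulk RNA fewer cells with a transcript and less of it per cell cannot be told apart. Of the 9 members 6 passed the low-count filter and were tested, HLA-B, HLA-C, HLA-E, B2M, TAP2 and TAPBP. TAPBP was lower in KD libraries, and the other 5 tested members were not called, by edgeR's quasi-likelihood test with Benjamini-Hochberg adjustment over 14673 genes. Across all genes 31.7% were called, 15.9% lower and 15.9% higher, so 1 call among 6 is no larger a share than the background. The median log2 change of the 6 was 0.05, against 0.00 over all tested genes.

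**Figure D2:**
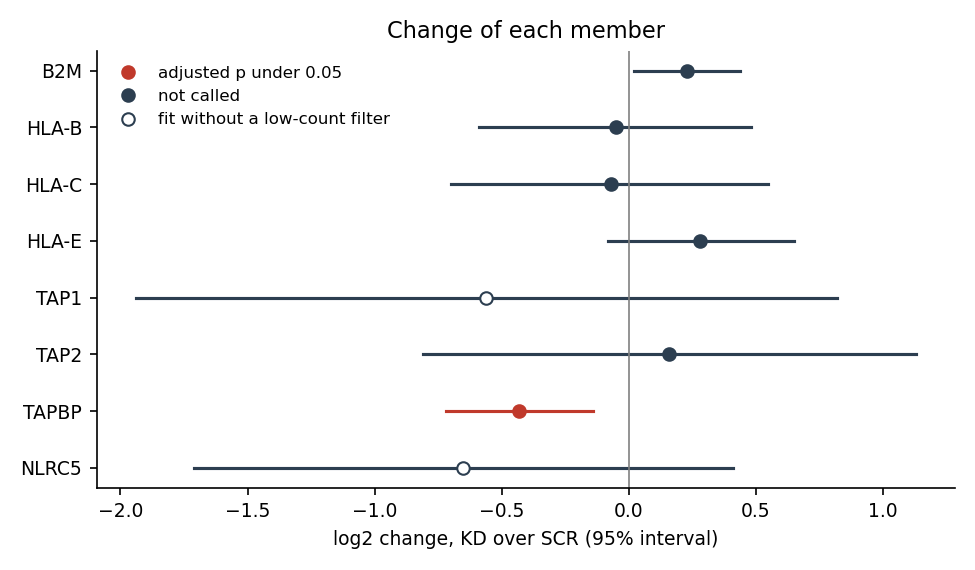
Log2 change of each member, KD over SCR, with its 95% interval from edgeR. TAPBP (red, -0.43) is the member called, B2M lies at 0.23 and is not called, and TAP1 and NLRC5 (open points) come from the fit without a low-count filter and have the widest intervals together with TAP2.

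The heavy chains HLA-B and HLA-C present peptides to cytotoxic T cells and engage inhibitory receptors on natural killer cells. HLA-B (chromosome 6, 31269491 to 31357188 in GENCODE 29 on GRCh38) had 1.43, 1.77 and 1.98 CPM in KD libraries 1 to 3, against 1.87, 1.86 and 1.79 CPM in SCR libraries 1 to 3, which rest on 11 to 38 counts. The KD values lay on both sides of the SCR values, and the log2 change was -0.05 ± 0.25 (SE, adjusted p = 0.931 by edgeR, 95% interval -0.59 to 0.48). HLA-C (chromosome 6, 31268749 to 31272130), whose annotated span overlaps that of HLA-B on the same strand, had 1.95, 1.62 and 1.25 CPM in KD libraries, against 1.81, 1.27 and 1.84 CPM in SCR libraries, from 15 to 33 counts. The groups overlapped fully, and the log2 change was -0.07 ± 0.29 (adjusted p = 0.869 by edgeR). The 95% intervals ran from 0.666 to 1.40 of the SCR level for HLA-B and from 0.617 to 1.46 for HLA-C, and differences within them were not detectable at this depth. The direction of both genes turned when 1 library was left out, with log2 changes of HLA-B from -0.17 to 0.03 and of HLA-C from -0.24 to 0.08.

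HLA-E presents leader peptides cut from other heavy chains and is read by the natural killer receptor NKG2A. HLA-E (chromosome 6, 30489467 to 30494205) had 5.46, 5.63 and 5.06 CPM in KD libraries, against 3.69, 4.45 and 5.09 CPM in SCR libraries. Only SCR library 3 reached the KD values, and the log2 change was 0.28 ± 0.17 (adjusted p = 0.224 by edgeR, 95% interval -0.08 to 0.65). With a library left out it ran from 0.18, without SCR library 1, to 0.39, without SCR library 3, and was called in none of these fits. HLA-F (chromosome 6, 29722775 to 29738528), a non-classical heavy chain, was listed at 0 counts in all 6 libraries. A count of 0 allows up to 0.386, 0.150 and 0.155 CPM in KD libraries 1 to 3 and 0.176, 0.150 and 0.173 CPM in SCR libraries 1 to 3 (a limit of 3 counts, counting error only). Its antisense neighbour HLA-F-AS1 was at 0 as well.

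Heavy-chain genes resemble each other, and reads that match several genes are shared among them by the counting tool. In GENCODE 29 the coding transcripts of HLA-B share 2.12% of their 50-base windows with transcripts of other genes, those of HLA-C 6.17%, HLA-E 5.13% and HLA-F 1.25%. The share was 1.05% for TAP1, 5.13% for TAPBP and 0 for B2M and NLRC5, and 32.7% for TAP2. These are reference alleles, and the alleles of the D283 Med line were not analysed here, so levels of HLA-B and HLA-C may miss reads that differ from the reference.

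B2M, the light chain of every class I molecule (chromosome 15, 44711487 to 44718877), had 127, 156 and 134 CPM in KD libraries, against 131, 117 and 109 CPM in SCR libraries. KD libraries 2 and 3 lay above all SCR libraries, while KD library 1 lay below SCR library 1. The log2 change was 0.23 ± 0.10 (adjusted p = 0.0901 by edgeR), with a 95% interval of 0.02 to 0.44, or 1.01-fold to 1.36-fold. B2M was called when SCR library 1 was left out (log2 change 0.31, adjusted p = 0.0362 by edgeR). Its log2 change was 0.14 without KD library 2 (adjusted p = 0.289 by edgeR) and 0.17 without SCR library 3 (adjusted p = 0.295 by edgeR). The sum of HLA-B, HLA-C, HLA-E and HLA-F was 6.99%, 5.77% and 6.18% of B2M in KD libraries, against 5.64%, 6.47% and 8.02% in SCR libraries, all in CPM. The means of 6.32% ± 0.618 in KD and 6.71% ± 1.21 in SCR libraries (SD, n = 3 each) differed by less than the spread.

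The peptide transporter was near the detection limit. TAP1 (chromosome 6, 32845209 to 32853978), the subunit whose gene stands head to head with the immunoproteasome gene PSMB9, had 2, 5 and 3 counts in KD libraries, against 5, 7 and 6 counts in SCR libraries. In CPM it was at 0.260, 0.261 and 0.156 in KD libraries and 0.293, 0.342 and 0.335 in SCR libraries. The groups do not overlap on that scale, as was so for 46% of tested genes, but TAP1 did not pass the filter, and without a filter its log2 change was -0.56 ± 0.70 (adjusted p = 0.611 by edgeR). TAP2 (chromosome 6, 32821833 to 32838780), the other subunit, had 0.650, 0.626 and 0.417 CPM in KD libraries, against 0.410, 0.293 and 0.782 CPM in SCR libraries, from 5 to 14 counts. Its groups overlapped, and the log2 change was 0.16 ± 0.45 (adjusted p = 0.820 by edgeR, 95% interval -0.81 to 1.13), turning to -0.13 without SCR library 2.

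TAPBP (chromosome 6, 33299694 to 33314387), which encodes tapasin, had 10.5, 11.4 and 11.2 CPM in KD libraries, against 14.5, 12.6 and 17.9 CPM in SCR libraries, from 81 to 321 counts. Every KD library lay below every SCR library, as was so for 23.1% of tested genes, and SCR library 3 stood highest. TAPBP fell by 0.43 ± 0.14 on the log2 scale in KD (adjusted p = 0.0270 by edgeR), to 11.04 ± 0.455 CPM in KD, against 14.99 ± 2.72 CPM in SCR libraries (SD, n = 3 each), a 1.35-fold lower level. The 95% interval ran from 0.606 to 0.909 of the SCR level. DESeq2 and limma-voom called it as well (adjusted p = 0.0383 and 0.0411). The call was lost without KD library 1 (log2 change -0.40, adjusted p = 0.0703 by edgeR), KD library 3 (-0.44, 0.0648) or SCR library 3 (-0.28, 0.151), with the value without SCR library 3 over 1.5 times smaller. RGL2, which adjoins TAPBP on the same strand, had 23.2 ± 1.58 CPM in KD and 23.2 ± 1.73 CPM in SCR libraries (adjusted p = 0.964 by edgeR).

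**Figure D3:**
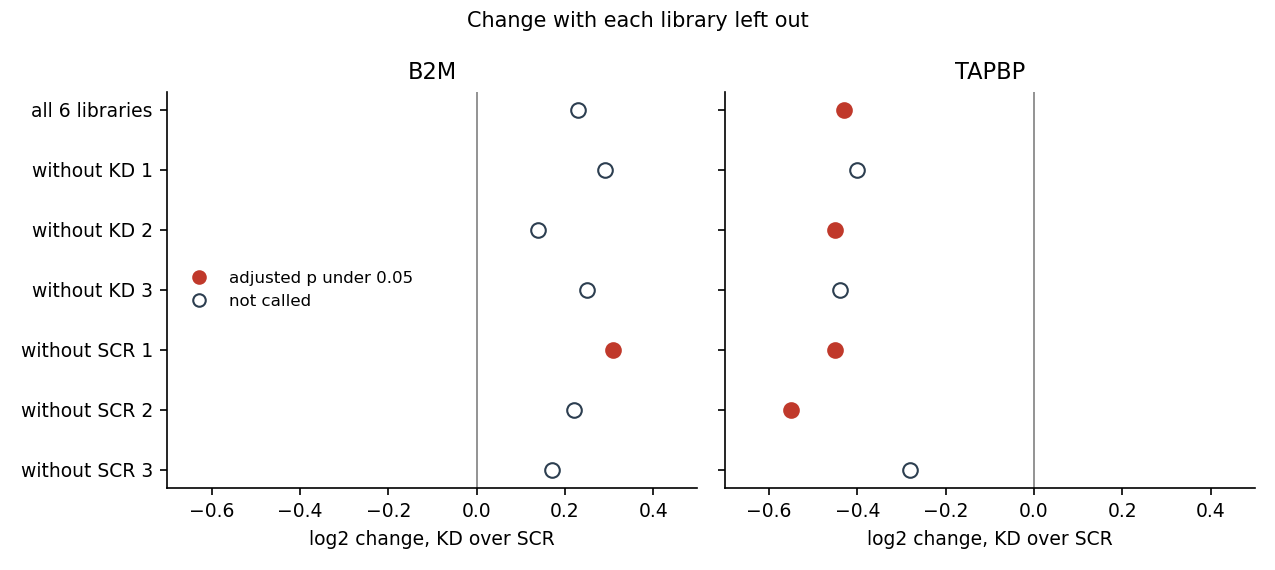
Log2 change of B2M (left) and TAPBP (right), KD over SCR, with all 6 libraries and with each library left out in turn. TAPBP stays below 0 in every fit and is called (filled points) in 3 of the 6 fits with a library left out, while B2M stays above 0 and is called in 1, the fit without SCR library 1.

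NLRC5 (chromosome 16, 56989485 to 57083531), the class I transactivator, had 1, 8 and 8 counts in KD libraries, against 10, 9 and 12 counts in SCR libraries. In CPM it was at 0.130, 0.417 and 0.417 in KD libraries and 0.585, 0.440 and 0.671 in SCR libraries. The KD values lie below the SCR values, as was so for 23.1% of tested genes, but NLRC5 did not pass the filter. Without a filter the log2 change of NLRC5 was -0.65 ± 0.54 (adjusted p = 0.493 by edgeR, 95% interval -1.71 to 0.41). CIITA, its counterpart for class II genes, had 0 counts in KD libraries and 0, 1 and 1 in SCR libraries. Of 13 class II genes 8 were at 0 in all libraries, and HLA-DMA, which helps to load class II molecules, was the one tested and was not called (adjusted p = 0.497 by edgeR).

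As a description of pattern, the genes most like B2M over the 6 libraries were ANXA2, KYAT3, MRPL14, MAPKAPK5 and ATP5MJ, with Pearson correlations of log2 CPM from 0.991 to 0.999 among 10839 genes of at least 5 CPM on average. ANXA2, the phospholipid-binding annexin A2, averaged 410 ± 34.0 CPM in KD and 366 ± 26.6 CPM in SCR libraries (SD, n = 3 each). The genes most like TAPBP included BIN1, S100PBP, ZNF652 and TNFAIP8L1, with correlations of up to 0.984. BIN1, a membrane-shaping protein, averaged 28.96 ± 0.718 CPM in KD and 35.8 ± 3.26 CPM in SCR libraries (SD, n = 3 each). With 6 libraries such values are common, and 686 genes had a correlation over 0.9 with B2M and 164 with TAPBP.

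Partners that trim peptides and help load them were partly lower and partly higher in KD. Of 8 tested genes, 3 fell, 1 rose and 4 were not called by edgeR, where 15.9% of all genes were called in each direction, and the median log2 change was -0.07. ERAP2, an aminopeptidase that trims peptides in the endoplasmic reticulum, had 7.80, 7.72 and 8.76 CPM in KD libraries, against 11.8, 13.0 and 12.4 CPM in SCR libraries. No KD library reached the SCR values, and its log2 change was -0.61 ± 0.12 (adjusted p = 0.00227 by edgeR), called in all 6 fits with a library left out. ERAP1, the related aminopeptidase, averaged 14.7 ± 1.38 CPM in KD and 19.5 ± 2.17 CPM in SCR libraries (SD, n = 3 each; log2 change -0.42, adjusted p = 0.0142 by edgeR), a call lost without KD library 2 (0.0527) or SCR library 3 (0.0775). TAPBPL, a tapasin relative that edits peptides outside the loading complex, had 3, 16 and 11 counts in KD libraries, against 21, 23 and 34 counts in SCR libraries (log2 change -1.13 ± 0.36, adjusted p = 0.0281 by edgeR). Its call was lost without KD library 1 (0.0800), KD library 3 (0.105) or SCR library 3 (0.157). CALR, the chaperone calreticulin of the loading complex, was the one that rose, with 669 ± 12.2 CPM in KD and 567 ± 41.2 CPM in SCR libraries (log2 change 0.24, adjusted p = 0.0442 by edgeR). It was not called without KD library 1 (0.117), KD library 3 (0.0975), SCR library 2 (0.229) or SCR library 3 (0.111).

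Subunits of the proteasome, which makes the peptides, were called in both directions, with 3 of 6 tested genes higher and 1 lower by edgeR, where 15.9% of all genes were called each way. The immunoproteasome subunits PSMB8 and PSMB9 had at most 2 counts in any library. PSMB10, the remaining immunoproteasome catalytic subunit, was higher at 10.5 ± 1.33 CPM in KD and 7.25 ± 1.13 CPM in SCR libraries (log2 change 0.53, adjusted p = 0.0163 by edgeR), a call lost without KD library 2 (0.0604) or SCR library 2 (0.0959). PSME1, a subunit of the PA28 activator, was lower at 30.7 ± 3.03 CPM in KD and 37.8 ± 1.37 CPM in SCR libraries (log2 change -0.30, adjusted p = 0.0290 by edgeR), and its call held in 1 of 6 fits with a library left out, that without KD library 2, with adjusted p up to 0.110. PSME2, its PA28 partner, had 31.3 ± 2.68 CPM in KD and 30.9 ± 2.19 CPM in SCR libraries and was not called (log2 change 0.03, adjusted p = 0.858 by edgeR). Of the 3 constitutive catalytic subunits PSMB6 rose (log2 change 0.40, adjusted p = 0.00636 by edgeR), PSMB7 rose (0.27, 0.0377) and PSMB5 was not called. PSMB7 lost its call without KD library 2 (0.114), KD library 3 (0.0615), SCR library 2 (0.105) or SCR library 3 (0.148).

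Other genes of the class I family were at low levels or lower. Of 12 listed, 4 were tested, 6 were at 0 in all libraries, 2 fell and 0 rose by edgeR, with a median log2 change of -0.26. Across all genes 15.9% were called in each direction. MR1, which presents vitamin B metabolites to MAIT cells, had 1.95, 1.67 and 1.98 CPM in KD libraries, against 3.22, 3.77 and 3.86 CPM in SCR libraries. The groups lay well apart, with a log2 change of -0.96 ± 0.22 (adjusted p = 0.00430 by edgeR) that was called in every fit with a library left out. FCGRT, the heavy chain of the neonatal Fc receptor, which also pairs with B2M, averaged 26.1 ± 2.19 CPM in KD and 34.5 ± 3.18 CPM in SCR libraries (log2 change -0.39, adjusted p = 0.00940 by edgeR), not called without SCR library 3 (0.0520). The 10 class I pseudogenes matched were at 0 throughout.

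**Figure D4:**
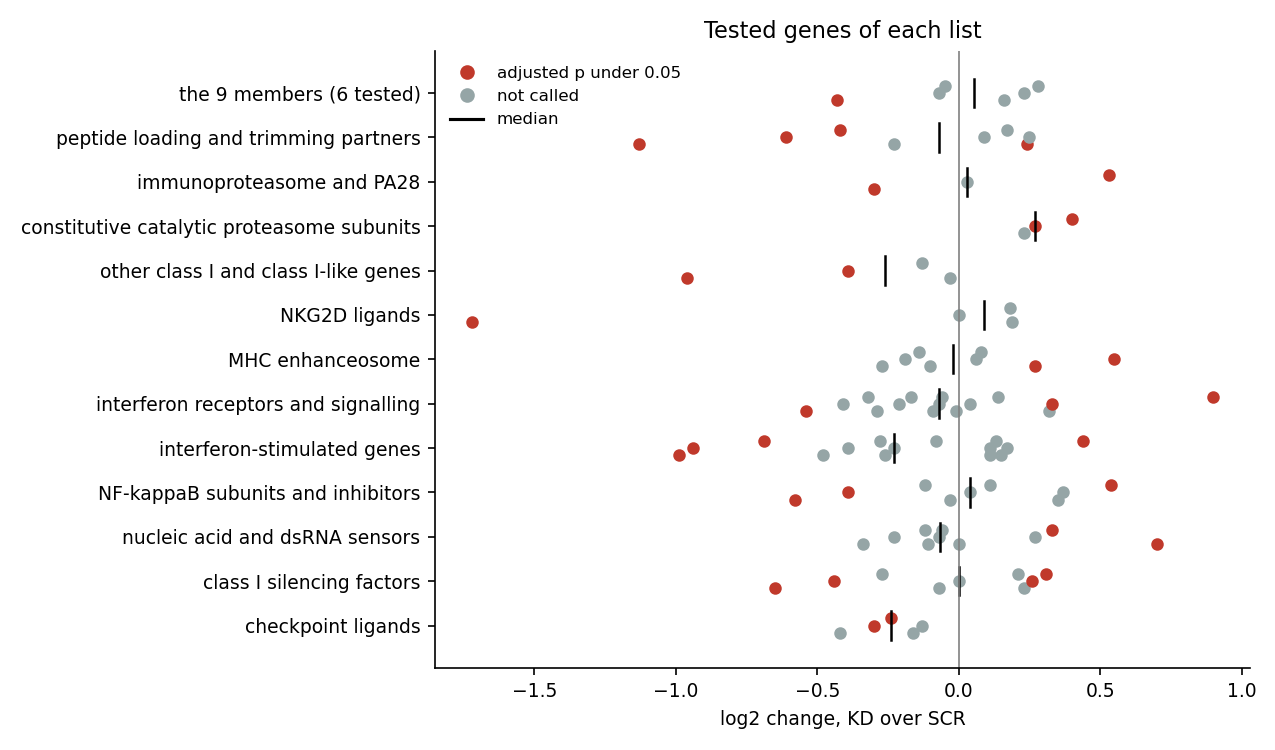
Log2 change, KD over SCR, of every tested gene of the members and of 12 fixed lists, one row per list, with called genes in red, other genes in grey and the median of each list as a black line. Every list with more than 3 tested genes has a median between -0.3 and 0.1, and the loading partners, interferon-stimulated genes and NF-kappaB genes hold calls on both sides of 0.

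The listed transcription factors that dock on class I promoters, those of the RFX, NF-Y and CREB families, were all tested. Of 8 genes of the RFX, NF-Y and CREB families 2 rose, 0 fell and 6 were not called by edgeR (median log2 change -0.02). Across all genes 15.9% were called in each direction. ATF1, a CREB family factor, averaged 27.9 ± 1.86 CPM in KD and 19.1 ± 2.28 CPM in SCR libraries (log2 change 0.55, adjusted p = 0.00184 by edgeR). NFYA, the subunit of NF-Y that recognises the Y box, averaged 68.1 ± 2.80 CPM in KD and 56.3 ± 2.41 CPM in SCR libraries (log2 change 0.27, adjusted p = 0.0204 by edgeR), and lost its call without KD library 1 (0.0515), KD library 3 (0.0953), SCR library 2 (0.0507) or SCR library 3 (0.0725). RFX5, which binds the X box, was at 81.0, 77.7 and 83.6 CPM in KD libraries, against 82.8, 74.5 and 74.4 CPM in SCR libraries (adjusted p = 0.588 by edgeR).

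The interferon route into these promoters had receptors and kinases that were all tested and ligands that were not detectable at this depth. Of 15 receptor and signalling genes, all tested, 2 rose, 1 fell and 12 were not called by edgeR (median log2 change -0.07). Across all genes 15.9% were called in each direction. STAT2, which carries type I interferon signals, fell to 34.5 ± 1.33 CPM in KD, against 49.99 ± 6.13 CPM in SCR libraries (log2 change -0.54, adjusted p = 0.00133 by edgeR). SOCS1, a feedback inhibitor of JAK kinases, averaged 5.39 ± 0.638 CPM in KD and 2.83 ± 0.537 CPM in SCR libraries (log2 change 0.90, adjusted p = 0.00369 by edgeR). PTPN2, a phosphatase that dampens the same kinases, rose by 0.33 on the log2 scale (adjusted p = 0.00904 by edgeR). Of 5 interferon ligands 4 were at 0 in all libraries, and IFNL1 had 1 count in SCR library 2.

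Of 40 interferon-stimulated genes 15 were tested, 3 fell, 1 rose and 11 were not called by edgeR, with a median log2 change of -0.23. Across all genes 15.9% were called in each direction. GBP1, an interferon-induced GTPase, had 5.20, 7.36 and 4.69 CPM in KD libraries, against 8.78, 13.3 and 12.7 CPM in SCR libraries (log2 change -0.99 ± 0.19, adjusted p = 0.00178 by edgeR). IFI35 fell by 0.69 (adjusted p = 0.00204 by edgeR) and IFI44 by 0.94 on the log2 scale (adjusted p = 0.0115 by edgeR), and IFI44 was not called without SCR library 2 (-0.70, 0.0910). SAMHD1, a dNTP hydrolase that restricts viruses, rose by 0.44 (adjusted p = 0.00700 by edgeR). Among 9 NF-kappaB subunits and inhibitors 2 fell and 1 rose, where 15.9% of all genes were called each way. NFKB2, a subunit of the non-canonical pathway, averaged 13.1 ± 0.554 CPM in KD and 19.5 ± 2.03 CPM in SCR libraries (log2 change -0.58, adjusted p = 0.00195 by edgeR). NFKB1 fell by 0.39 (adjusted p = 0.0158 by edgeR), lost without KD library 3 (0.0506), SCR library 2 (0.0503) or SCR library 3 (0.0639), and the inhibitor NFKBIB rose by 0.54 (adjusted p = 0.00263 by edgeR).

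Genes known to hold class I down gave 2 rises and 2 falls among 9 tested by edgeR, where 15.9% of all genes were called in each direction. Their median log2 change was 0.00. SUSD6, which with TMEM127 sends class I molecules to lysosomes, fell to 24.2 ± 1.86 CPM in KD, against 37.6 ± 2.75 CPM in SCR libraries (log2 change -0.65 ± 0.10, adjusted p = 0.00041 by edgeR). MARCHF9, a ubiquitin ligase that removes class I molecules from the surface, averaged 20.1 ± 1.47 CPM in KD and 27.0 ± 1.34 CPM in SCR libraries (log2 change -0.44, adjusted p = 0.00444 by edgeR). TMEM127 rose by 0.26 (adjusted p = 0.0427 by edgeR), a call kept in 1 of 6 fits with a library left out, that without SCR library 1, with adjusted p up to 0.154. EED, a subunit of the Polycomb complex that silences class I genes in some tumours, rose by 0.31 (adjusted p = 0.0268 by edgeR), lost without KD library 1 (0.0597), KD library 2 (0.0890), SCR library 2 (0.148) or SCR library 3 (0.0956). EZH2, its catalytic partner, was not called (log2 change 0.00 ± 0.08).

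Of the members 7 lie in the MHC on chromosome 6, between 29722775 and 33314387, among 304 other annotated genes. Of 92 neighbours tested there, 28 (30.4%) were called by edgeR, 18 higher and 10 lower, against 31.7% of all genes, with a median log2 change of 0.03. Of 149 protein-coding genes in this interval, members included, 32 (21.5%) had no count in any library, against 18.5% of protein-coding genes overall. The neighbours with the smallest adjusted p were IER3, HSPA1A, HSPA1B and TCF19. IER3, a stress-responsive survival gene, averaged 292 ± 5.31 CPM in KD and 163 ± 13.3 CPM in SCR libraries (log2 change 0.84, adjusted p = 3.27e-05 by edgeR). HSPA1A and HSPA1B, near-identical HSP70 genes whose counts are uncertain apart, each rose by 0.84 (adjusted p = 0.000367 and 0.000766 by edgeR), and TCF19, a nuclear factor, fell by 0.51 (adjusted p = 0.00107 by edgeR). Of the 7 antisense and long non-coding neighbours matched, 2 were tested and neither was called, and HLA-F-AS1 and PSMB8-AS1 were at 0.

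**Figure D5:**
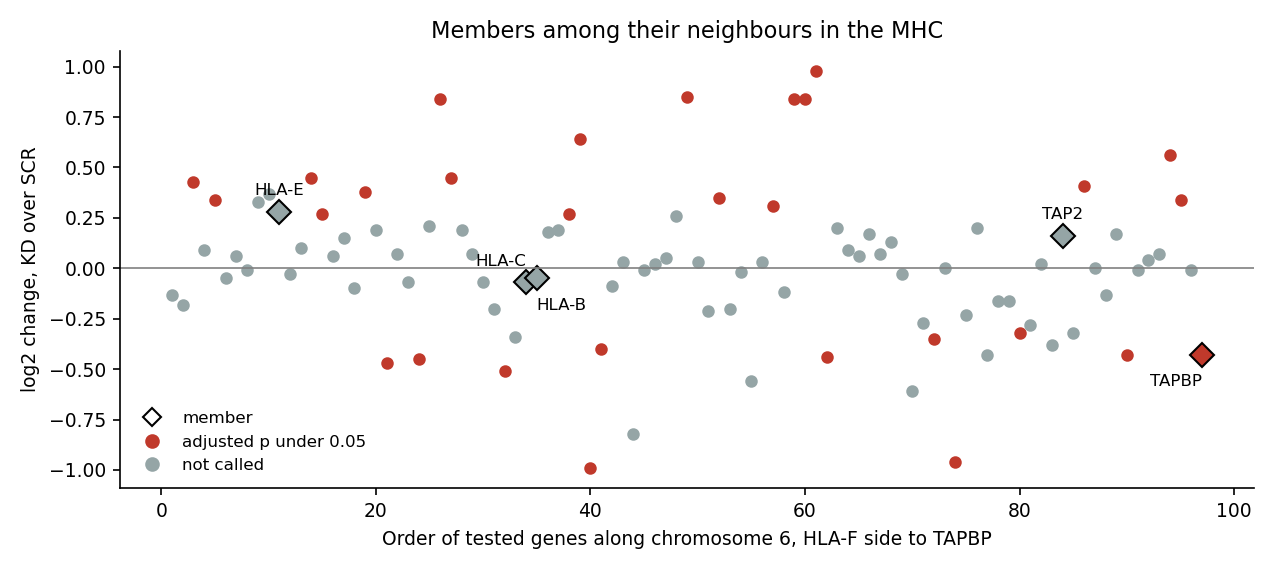
Log2 change, KD over SCR, of the tested genes in the MHC in their order along chromosome 6, with members as diamonds, called genes in red and others in grey. TAPBP, the last gene on the right, is the called member, HLA-B and HLA-C lie beside the line at 0, and called neighbours lie on both sides of it.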

How the data were processed

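PolyA+ RNA libraries (miRNeasy Micro kit, TruSeq Stranded mRNA kit, per the labels' protocols) were made from 3 KD and 3 SCR samples. The submitters' processing notes name Trim Galore 0.6.4, STAR 2.7.9a, RSEM and GRCh38.p13. Annotation and strand setting: not given in the sources used here. The authors deposited RSEM expected counts, which are whole numbers in the files. Reads matching several genes are divided between them, which makes paralog counts uncertain.

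The 44 pseudoautosomal Y copies were added to their X copies, leaving 60664 genes, 42028 with a symbol and 58396 with an entry in GENCODE 29 (GRCh38, 1-based), the source of coordinates and exon lengths. Groups came from the labels. Replicate libraries were distinct (chi-square per degree of freedom from 2.69 to 15.2 between libraries of the same group). KD was compared with SCR by edgeR 4.0.16 (R 4.3.3): filterByExpr (minimum count 10), TMM, glmQLFit and glmQLFTest without covariates, 2-sided, Benjamini-Hochberg over 14673 genes, threshold 0.05. SE is the log2 change over the square root of F, and 95% intervals use the matching t quantile. CPM uses TMM-scaled totals. Alternatives were RLE and upper-quartile scaling, no filter, 1 CPM in 3 libraries, DESeq2 1.42.0, limma-voom 3.58.1, a replicate block, a threshold of 0.01 and leaving out each library.

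The members and lists were chosen with earlier results of these data known. Named genes were the members, the called genes of each list (the 4 with the smallest adjusted p where more were called), and the 5 genes most correlated with the most abundant member and with the member of smallest adjusted p. Uncalled genes outside the members were named after their values were seen. Some class I heavy-chain genes, and some other genes and lists that these rules cover, are not reported here. Figures were drawn with matplotlib 3.10.9.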

Additional observations from a re-analysis of the deposited data

How the results depend on the processing

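The count of genes called by edgeR was 4657 and ran from 2704 to 5114 with a library left out, lowest without SCR library 2 (2704) and SCR library 3 (2891). It was 2459 at an adjusted p under 0.01, where 0 members were called. With a library left out, 0 to 2 members were called in place of 1: 0 without KD library 1, KD library 3 or SCR library 3, and 2 (TAPBP and B2M) without SCR library 1. Under both other scalings, both other filters, DESeq2, limma-voom and the replicate block, TAPBP was the 1 member called, with log2 changes from -0.49 (upper-quartile scaling) to -0.41 (limma-voom) and adjusted p from 0.00664 to 0.0411. Direction was not settled for HLA-B (-0.17 to 0.03 with a library left out), HLA-C (-0.24 to 0.08) and TAP2 (-0.13 to 0.64), and the cause was not tested. The ratio of heavy chains to B2M, 0.941 in KD relative to SCR, ran from 0.872 to 1.04 with a library left out. Upper-quartile scaling split all calls into 1773 higher and 2803 lower, against 2328 and 2329 with TMM. Same-numbered libraries shared little deviation from their group means (correlations 0.0315, 0.0963 and -0.0334). These values cannot show whether the libraries were prepared in pairs, which the labels do not state. With the replicate block 4742 genes were called, TAPBP at -0.43 (adjusted p = 0.0185 by edgeR) and B2M at 0.23 (0.0883). The length alternative was added after seeing the data. Depth limits HLA-F, TAP1, TAP2 and NLRC5, at 0 to 14 counts a library, and KD library 1 most of all.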

Other observations

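Ligands of activating and inhibitory receptors on immune cells were read beside the class I genes. Of 8 ligands of the natural killer receptor NKG2D 4 were tested, and 1 was called by edgeR, where 31.7% of all genes were called. ULBP1 fell, with 6, 11 and 12 counts in KD libraries, against 25, 60 and 34 counts in SCR libraries (log2 change -1.72 ± 0.35, adjusted p = 0.00246 by edgeR), and was called in all 6 fits with a library left out. MICA and MICB, which lie in the MHC beside HLA-B, had log2 changes of 0.18 and 0.19 and were not called (adjusted p = 0.389 and 0.267 by edgeR). Of 5 tested checkpoint ligands 2 were called, both lower, where 15.9% of all genes were called lower. CD276 had a log2 change of -0.30 (adjusted p = 0.0183 by edgeR) and NECTIN2 one of -0.24 (adjusted p = 0.0385 by edgeR). CD276 lost its call without KD library 3 (0.0677), SCR library 2 (0.0694) or SCR library 3 (0.0866), and NECTIN2 without KD library 1 (0.0828), KD library 3 (0.125), SCR library 2 (0.117) or SCR library 3 (0.126). CD274, the PD-L1 gene, had 3 to 9 counts in every library and was not tested.

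Sensors of foreign nucleic acid gave 2 rises and 0 falls among 10 tested by edgeR, where 15.9% of all genes were called in each direction. TBK1, a kinase of the interferon-inducing pathway, averaged 23.7 ± 2.86 CPM in KD and 14.8 ± 3.57 CPM in SCR libraries (SD, n = 3 each; log2 change 0.70, adjusted p = 0.00353 by edgeR). EIF2AK2, the double-stranded RNA kinase PKR, rose by 0.33 on the log2 scale (adjusted p = 0.0234 by edgeR), a call lost without KD library 1 (0.0758), KD library 3 (0.134), SCR library 2 (0.121) or SCR library 3 (0.0753).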
